A study of Mus musculus with 146 samples.

Results

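The Bcl2 family genes were followed in single germ cells of the newborn mouse ovary. The family was taken as 10 genes chosen by name, out of 52605 gene symbols measured in each library. They were the pro-survival members Bcl2, Bcl2l1, Mcl1 and Bcl2l10, the effectors Bax, Bak1 and Bok, and the BH3-only members Bcl2l11, Bad and Bid. All 10 were present in every table. The 146 Smart-seq2 libraries came from ovaries of C57/BL6J pups at P0.5 (ovaries n = 5, pups of a single litter), without any treatment or transgene, and germ cells were picked by size with a mouth pipette. The labels gave 1 group and did not tie a cell to a pup, an ovary or a plate. All cells were therefore 1 sample, a spread over cells was not an error between animals, and no test was made. Cells with a Ddx4 level below 1 TPM (a transcript's share of a cell's RNA, corrected for its length) were left out, and this removed 1 library.

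The libraries were not 146 different cells. In 7 pairs of libraries, the log2(TPM + 1) values of 11330 genes had a Pearson r of 0.984 to 0.993, whereas no other pair of libraries was above 0.781. The read counts of these pairs differed by about the sampling noise (median chi-square of a gene of 0.638 to 1.10), against 92.5 for the closest other pair. The labels do not describe these libraries as repeats. Each pair was counted as 1 cell with its mean TPM and its summed reads, so that of the 146 libraries 7 were folded into another and 1 was left out. The kept cells numbered 19, 86 and 33 in clusters 1 to 3, defined below. Counting the repeats apart or leaving the 7 repeated cells out moved the mean of Bax from 523 to 523 and 524 TPM, that of Bcl2l10 from 24.6 to 23.4 and 25.9 TPM, and the median balance of pro-survival and pro-death transcripts from -2.52 to -2.53 and -2.52. All 7 repeated cells were in cluster 2, and the number of cells with a balance above 0 was 6 in each of the 3 counts.

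Proteins of the Bcl2 family decide at the outer mitochondrial membrane whether a cell starts apoptosis. Bax, Bak1 and Bok form or help to form the pores through which cytochrome c leaves the mitochondria. The pro-survival proteins hold the effectors and the BH3-only proteins in check, and the BH3-only proteins relay death signals by binding the pro-survival proteins or the effectors. In the perinatal mouse ovary, many germ cells die while germ cell cysts break apart and primordial follicles form, and the loss of Bax is known to leave more oocytes alive. How the transcripts of the opposing members were set against each other within the same germ cell was the question of these comparisons.

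A library with Ddx4 had between 4074810 and 26855300 reads on genes, with a median of 9498860. Reads are not separate molecules in this protocol, so intervals of shares cover counting error only. Of the 6 germ cell markers, all had a mean over 1 TPM. Ddx4 had a lowest value of 7.49, a median of 185 and a highest value of 542 TPM, and Dazl and Sycp3 were at 1 TPM or more in every kept cell. Mael was below 1 TPM in 2 cells, Tex101 in 12 and Dppa3 in 15. Of the 6 markers of pregranulosa cells, only Kitl had a mean over 1 TPM. Their summed level had a median of 0.102 TPM and a highest value of 81.1 TPM, and Foxl2 reached 1 TPM in 4 cells. The study had screened the cDNA by PCR for Ddx4 (Vasa) and Foxl2 and had discarded samples with Foxl2. The levels of Ddx4 and Foxl2 were thus selected beforehand and are no separate measure of purity. Of the 6 stromal markers, 5 had a mean over 1 TPM, and their summed level had a median of 1.03 TPM and a highest value of 873 TPM. Its medians in clusters 1 to 3 were 4.35, 0.952 and 0.467 TPM, and the part of stromal transcripts in the differences between clusters was not tested. Globin transcripts exceeded 1000 TPM in 28 cells (5, 16 and 7 cells of clusters 1 to 3), up to 324516 TPM in a single cell.

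The cells were placed in 3 clusters that were rebuilt from 20 feature genes, none of them a family member. The study names 19 of these genes for its own clusters, and Taf4b was added here. Cluster 1 (19 cells) lies at the end with high meiotic genes, where the study placed germ cells in cysts. Cluster 2 (86 cells) is where the study placed cyst breakdown, and cluster 3 (33 cells) lies at the end with high oocyte genes, where it placed germ cells in follicles. The rebuilt clusters need not hold the same cells as those of the study. Exact assignments of cells by the study were not used here.

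Bax and Bcl2l1, the members with the highest level on the pro-death and on the pro-survival side, show how unequal the sides were, with means of 523 and 53.2 TPM. The 250 bases before the RefSeq start of both genes are printed here as annotated regions (GRCm38.p6, read 5′ to 3′ on the strand of the gene). For Bcl2l1 the outermost start was taken. Where the transcripts start in these cells was not measured. Capitals mark the GC box (GGGCGG or its complement CCGCCC) and the E-box (CANNTG, the same on both strands).

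Bax, chr7:45466899-45467148, minus strand: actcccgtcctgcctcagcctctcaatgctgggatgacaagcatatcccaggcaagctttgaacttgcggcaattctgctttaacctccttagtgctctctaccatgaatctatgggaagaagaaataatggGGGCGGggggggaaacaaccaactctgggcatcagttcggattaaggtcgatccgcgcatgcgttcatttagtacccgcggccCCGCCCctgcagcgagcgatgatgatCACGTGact

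Bcl2l1, chr2:152831729-152831978, minus strand: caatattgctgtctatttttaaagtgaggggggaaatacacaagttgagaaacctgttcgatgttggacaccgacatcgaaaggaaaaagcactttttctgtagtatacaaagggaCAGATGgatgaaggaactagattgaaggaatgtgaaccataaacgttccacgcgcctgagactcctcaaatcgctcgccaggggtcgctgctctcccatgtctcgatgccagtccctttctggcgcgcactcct

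The Bax window held 2 GC boxes, with first bases at -118 and -35 from the start, an E-box at -9 and 14 CG dinucleotides. The Bcl2l1 window held an E-box at -134, no GC box and 12 CG dinucleotides. The RefSeq window of Bak1 lies within an annotated exon and is not printed. Over all 32851 RefSeq promoter windows of this length, 32.7% held a GC box, 66.2% held an E-box and the median number of CG dinucleotides was 6. RefSeq gave 13 such windows for 9 members. Of these 13 windows, 8 held a GC box and 7 held an E-box. By member, a GC box was found for 7 of the 9 and missing for Bak1 and Bcl2l1. No window of a member held a TATA box (TATAAA or TTTATA), which 12.4% of all windows held. The motifs are matches of letters and were not related to the levels by any test.

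Bax was the most abundant member by far. Its level was 523 ± 260 TPM (mean ± SD over all kept cells), with a lowest value of 0, a median of 500.1 and a highest value of 1398 TPM. Almost every cell carried it. It reached 1 TPM in all but 2 cells (98.6%, exact 95% interval 94.9 to 99.8%) and exceeded 100 TPM in 96.4% of cells. The coefficient of variation over cells was 49.7%. Among the 499 genes with a mean within 2-fold of that of Bax the median was 57.4%, and 23.2% of them varied less than Bax. Bax was the highest member of the family in 94.2% of cells, and in 91.3% it exceeded the sum of all other members. Its median share of the family's TPM within a cell was 77.4%. Exons of Bax (chr7:45461697-45466898, mm10) overlap those of the gene model Gm45808 on the same strand, and reads there cannot be told apart.

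The other effectors were close to absent. Bak1 (chr17:27019810-27029009) received 8 reads over all kept cells, against 443223 for Bax, and did not reach 1 TPM in any cell, which allows a share of cells of up to 2.17%. Its highest value was 0.344 TPM. Bok (chr1:93685660-93695764) was above 0 in 4 cells and at 1 TPM or more in 3, and cell S091 with 65.01 TPM held most of its signal. Bak1 thus gave no measurable level at this depth in cells in which Bax had a median of 2925 reads. Exons of Bak1 overlap those of Ggnbp1 on the opposite strand, which had a mean of 7.15 and a highest value of 134.8 TPM. Reads in the shared exons cannot be told apart by strand, and how many were counted for Ggnbp1 was not tested.

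A few cells departed from the high Bax level. Below 100 TPM of Bax were 5 cells, S012, S014, S023, S049 and S066 in the labels. Cells S012 and S023, both of cluster 3, had 0.473 and 0 TPM of Bax with 7082130 and 10791400 reads on genes. Mitochondrial genes took 15.8, 20.9, 20.9 and 16.8% of the reads in cells S012, S014, S049 and S066 and 6.04% in cell S023, against a median of 6.27% over the kept cells. Over all kept cells the Spearman correlation with this share was -0.27 for Bax and -0.35 for the pro-death sum. The part of the mitochondrial share, a sign of RNA or cell quality, in the low Bax values was not tested. The study's own quality limits, on total signal and on the mitochondrial and spike-in shares, were not applied to the kept cells. With only the cells within those limits, read here from TPM, the mean of Bax was 535 TPM, against 523 TPM. Cell S012 carried the highest Bcl2l1 level of all cells (254 TPM) with 138.96 TPM of Bid, while cell S023 had 39.3 TPM of Bad and 17.4 TPM of Mcl1.

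Among the pro-survival members, Bcl2l1, which encodes BCL-X, and Mcl1 were the common transcripts, Bcl2l10 was restricted to fewer cells, and Bcl2 itself was scarce. Bcl2l1 (chr2:152780668-152831728) had a lowest value of 0, a median of 36.5 and a highest value of 254 TPM, and reached 1 TPM in 78.3% of cells (interval 70.4 to 84.8%). Mcl1 (chr3:95658788-95663176), whose protein is short-lived, had a median of 25.2 and a highest value of 199.9 TPM and reached 1 TPM in 82.6% of cells (interval 75.2 to 88.5%). Both were at 1 TPM or more in 93 cells, Bcl2l1 without Mcl1 in 15, Mcl1 without Bcl2l1 in 21, and neither in 9. Their values spread over the whole range from 0 to over 100 TPM within a single cluster. Bcl2l10 (chr9:75347758-75351632), called Diva or Boo in the mouse and described with both protective and death-promoting activity, had a median of 0 and a highest value of 465 TPM, and reached 1 TPM in 41 cells (29.7%, interval 22.2 to 38.1%). Bcl2 (chr1:106538178-106714274), the founding member, had a median of 0.0539 TPM, passed 1 TPM in 32 cells (23.2%) and stood at 113.9 TPM in cell S013.

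The BH3-only members were patchy. Bid (chr6:120891930-120916853), which links caspase-8 to the mitochondria, had a median of 14.6 and a highest value of 606 TPM and reached 1 TPM in 84 cells (60.9%). Bad (chr19:6941861-6951899), which is held inactive by phosphorylation in response to growth factors, had a median of 1.66 and a highest value of 88.2 TPM and reached 1 TPM in 72 cells (52.2%). Bcl2l11 (chr2:128126038-128162547), which encodes BIM, had a median of 0 and a highest value of 123.7 TPM and reached 1 TPM in 24 cells (17.4%). No BH3-only member reached 1 TPM in 29 cells, 1 member did in 48 cells, 2 did in 51 cells and all 3 in 10 cells. Exons of Bad, Bid, Bak1 and Bcl2 overlap those of Gpr137, Bcl2l13, Ggnbp1 and D630008O14Rik on the opposite strand, and the protocol does not mark the strand.

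By mean TPM the members ranked Bax (523), Bcl2l1 (53.2 ± 57.3), Bid (33.9 ± 64.4), Mcl1 (32.6 ± 35.4), Bcl2l10 (24.6 ± 62.1), Bad (11.7 ± 17.2), Bcl2l11 (3.53 ± 12.9), Bcl2 (2.29 ± 10.4), Bok (0.533 ± 5.55) and Bak1 (0.00289 ± 0.0296). Only the step from Bax to Bcl2l1 was larger than the SD over cells of the lower member and of the higher one, and all other neighbours in this order differed by less than the SD of the higher one. Single cells carried part of the low means, so that without cell S013 the mean of Bcl2 was 1.47 TPM, without cell S091 that of Bok was 0.0627 TPM and without cell S019 that of Bak1 was 0.000403 TPM. A median of 4 members per cell reached 1 TPM.

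The repeat libraries gave a measure of the error between 2 libraries of a cell, which is set here beside the spread of separate cells. Within the 7 pairs the SD of log2(TPM + 1) was 0.0710 for Bax, 0.0977 for Bcl2l1, 0.104 for Mcl1, 0.0229 for Bcl2l10, 0.231 for Bad and 0.0358 for Bid. Over all kept cells the SD was 1.34 for Bax, 2.62 for Bcl2l1, 2.18 for Mcl1, 2.71 for Bcl2l10, 2.23 for Bad and 2.72 for Bid. A member that was absent from the first library of a pair stayed below 1 TPM in the second for all 10 genes. Cell S046, for example, had Mcl1 at 71.9 and 86.4, Bad at 31.6 and 34.1 and Bid at 0 and 0 TPM in its 2 libraries. For Bcl2l10 the pairs say little, since 6 of the 7 were at 0 in both libraries and the seventh was at 1.66 and 1.51 TPM, and all pairs were in cluster 2. How early in the protocol the repeat libraries part is not described, so this error may not hold losses of RNA before that step. Read counts within the pairs differed by about the sampling noise, so it may hold little more than the sampling of reads. The spread of separate cells can therefore hold technical error that the pairs do not show.

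**Figure D1:**
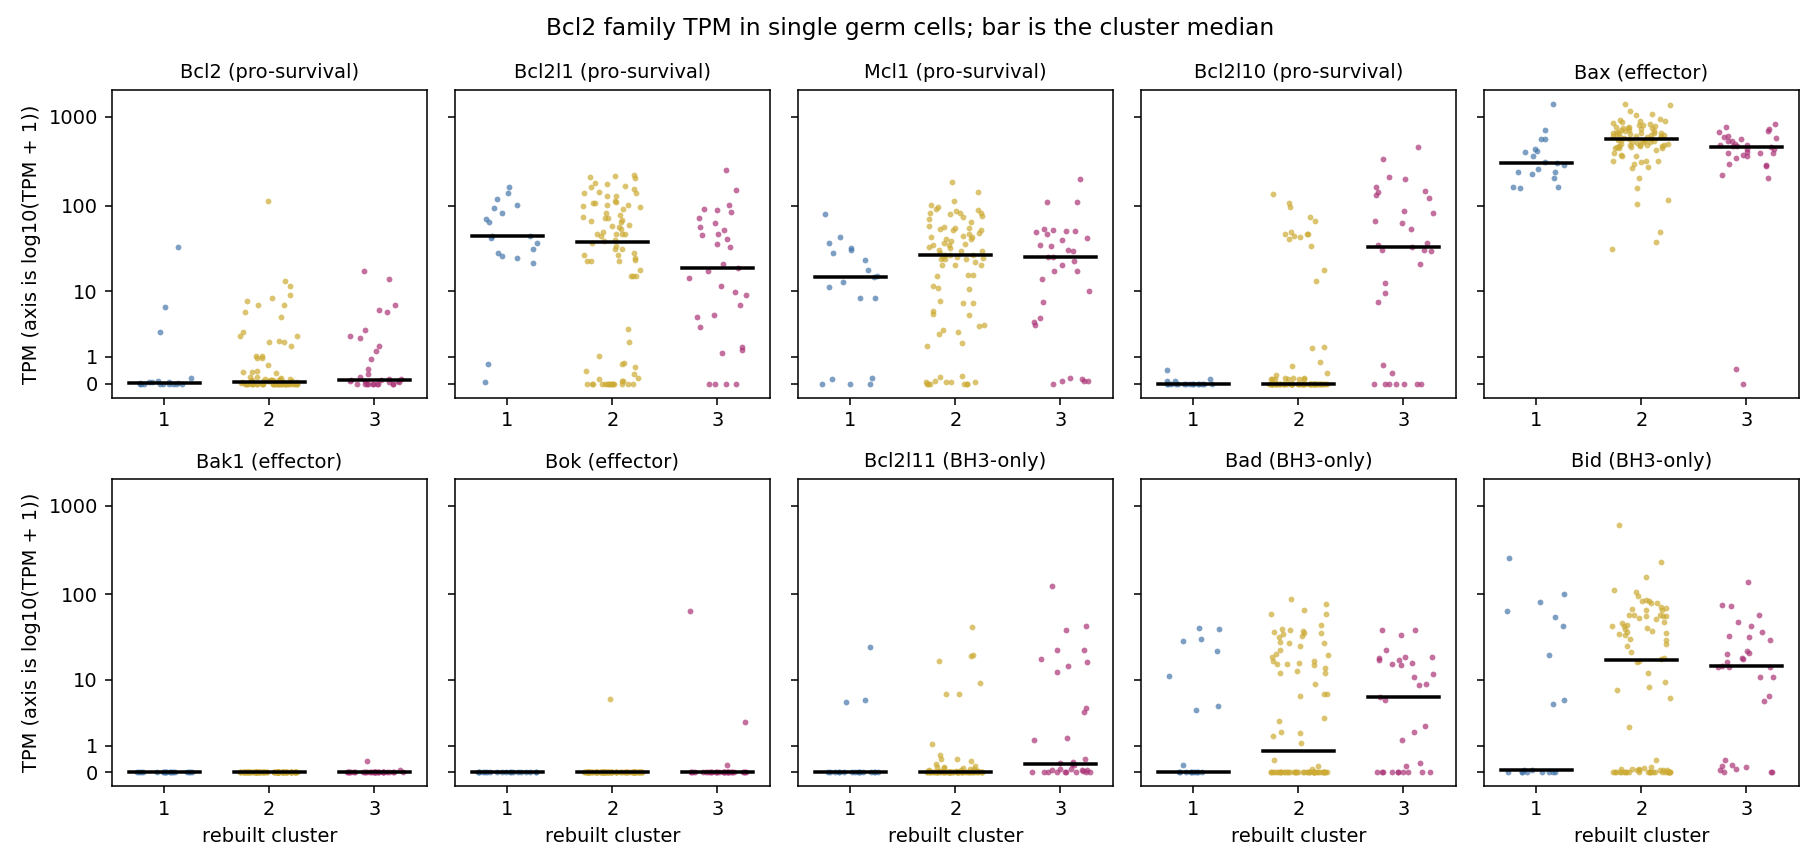
TPM of the 10 members in each kept cell (points) by rebuilt cluster, on an axis of log10(TPM + 1), with a bar at the cluster median. Bax lies mostly above 100 TPM in all 3 clusters, Bak1 lies under 1 TPM, Bok lies at 0 in all but 4 cells, and the Bcl2l10 points leave 0 in part of cluster 2 and most of cluster 3.

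Of the 8 members that could be called, Bcl2l10 had the largest ratios of cluster means with 1 TPM added. In cluster 1 its lowest, median and highest values were 0, 0 and 0.437 TPM, in cluster 2 they were 0, 0 and 136.5 TPM, and in cluster 3 they were 0, 33.5 and 465 TPM. It reached 1 TPM in 0 of 19 cells (which allows a share of up to 15.8%), in 17 of 86 cells (19.8%, interval 12.0 to 29.8%) and in 24 of 33 cells (72.7%, interval 54.5 to 86.7%). The ranges overlap, because 9 cells of cluster 3 stayed below 1 TPM. Its mean was 0.0385 ± 0.104, 10.2 ± 25.95 and 76.3 ± 105.2 TPM (SD over cells), a log2 ratio of 3.43 from cluster 1 to 2 and of 2.79 from cluster 2 to 3 on the log2(mean TPM + 1) scale. At an equal number of 1000000 reads, the expected share of cells with a read of Bcl2l10 was 3.03%, 21.9% and 75.02% in clusters 1 to 3. Without any single cell the log2 ratio stayed between 3.22 and 3.46 and between 2.54 and 2.99. The ratio from cluster 1 to 2 depends on the 1 TPM added, since the mean of cluster 1 lies far below it. It was 6.21 with 0.1 TPM added and 1.01 as a difference of mean log2 values, where Bcl2l1 had -1.02. From cluster 2 to 3 the ratio of Bcl2l10 was 2.89 and 3.34 in these 2 ways.

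Bcl2l10 went with several of the late feature genes, though not with all of them. Over all kept cells the Spearman correlation of Bcl2l10 was 0.63 with Zp3, 0.57 with Zp2 and 0.50 with Zp1, which encode the glycoproteins of the zona pellucida, 0.55 with Nlrp14, and -0.30 with Sycp2, a protein of the meiotic chromosome axis. Within cluster 3 alone (33 cells) it was 0.54 with Zp2, 0.49 with Zp3, 0.37 with Nlrp14, 0.27 with Zp1 and 0.04 with Sycp2, and within cluster 2 (86 cells) it was 0.29, 0.50, 0.42, 0.20 and 0.01 with the same genes, so the negative value with Sycp2 over all cells was not seen within either cluster. Among the other maternal genes of the study's list, values ran from 0.26 (Kit) to 0.50 (H1foo) over all kept cells. They ran from 0.08 (Pou5f1) to 0.32 (Zar1) within cluster 2 and from -0.21 (Ybx2) to 0.44 (Pou5f1) within cluster 3. For Sohlh1, Nobox, Figla and Lhx8 they ran from 0.05 to 0.15 over all kept cells. Taf7l, a meiotic gene, had -0.34 over all kept cells and 0.31 within cluster 3. All these values come from the same cells and libraries. Depth moved along with Bcl2l10. The number of genes with a read had a median of 12424, 12249 and 14506 per cell in clusters 1 to 3. The spike-in share of reads had a median of 0.345, 0.430 and 0.279%. Bcl2l10 had a Spearman correlation of 0.47 with the number of genes and -0.44 with this spike-in share of reads. The part of these measures in the Bcl2l10 difference was not tested. Divided by spike-in TPM, the log2 ratios of Bcl2l10 were 3.59 and 3.79, and at an equal number of reads the shares above kept their order. The number of genes with a read was not matched there. With the number of reads Bcl2l10 had a Spearman correlation of 0.39.

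Bax stood high in all 3 clusters. Its lowest, median and highest values were 156, 301 and 1398 TPM in cluster 1, 32.1, 566 and 1386 TPM in cluster 2, and 0, 465 and 831 TPM in cluster 3. The 3 ranges overlap over most of their length. The means were 390.1 ± 288, 581 ± 261 and 448 ± 191 TPM, and the log2 ratios of 0.57 (cluster 2 over 1) and -0.37 (cluster 3 over 2) were both under the 1.5-fold limit of 0.58 used here to call a ratio. The former lay so near the limit that it passed without any of 11 single cells, up to 0.80 without cell S016, which has the highest Bax level of all. It also passed by CPM (0.68), as a difference of mean log2 values (0.60), without mitochondrial genes and spike-ins in the TPM (0.61), without the cells with much globin (0.63) and, just above the limit, without the 7 cells sequenced as 2 libraries (0.59). The ratio of cluster 3 over 2 passed as a difference of mean log2 values (-0.66). Divided by spike-in TPM, which is lower in cluster 3, the ratio of cluster 3 over 2 changed sign to 0.64. The median over all genes for cluster 3 over 2 moved along, from -0.22 to 0.52, so the sign change came with a shift of the whole scale, and Bax stood near the median of all genes on both scales.

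A total of 8 members had a mean of at least 1 TPM and could be called. From cluster 1 to 2, 2 of the 8 were at least 1.5-fold higher (Mcl1 and Bcl2l10), while 31.6% of all 17742 genes were, and 0 were lower, while 21.3% of all genes were. From cluster 2 to 3, 2 were higher (Bcl2l10 and Bcl2l11), against 18.2% of all genes, and 1 was lower (Bid), against 32.7%. From cluster 1 to 3, 3 were higher (Mcl1, Bcl2l10 and Bcl2l11), against 30.8%, and 0 were lower, against 33.8%. With 8 genes these counts say nothing particular about the family. The median log2 ratio of the 8 members was 0.28, -0.28 and 0.13 for the 3 contrasts, and that of all genes was 0.11, -0.22 and -0.05.

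Mcl1 was higher in cluster 2 than in cluster 1, with a mean of 35.2 ± 35.5 against 19.3 ± 20.2 TPM and a log2 ratio of 0.84. Its medians were 14.8, 27.1 and 25.5 TPM in clusters 1 to 3 and its ranges overlap. The ratio of cluster 2 over 1 was under the limit in 2 other clusterings of the same cells (0.46 with Ward clusters and 0.43 with clusters from variable genes). The ratio of cluster 3 over 1 (0.77) was under the limit there too (0.34 and 0.13), and it was 0.54 without cell S113. Bcl2l1 was not called, with means of 59.9 ± 45.6, 56.5 ± 60.9 and 40.8 ± 53.3 TPM and medians of 45.1, 37.96 and 19.1 TPM. Its log2 ratio of cluster 3 over 1 was -0.54, and it passed the limit without any of 11 single cells, down to -0.79 without cell S012. Its log2 ratio of cluster 3 over 2 was -0.46, and 0.16 when divided by spike-in TPM, while the median over all genes was -0.22 and 0.52 on these scales, so Bcl2l1 stood below it on both. As a difference of mean log2 values, which gives less weight to the cells with the highest level, Bcl2l1 was lower in cluster 2 than in cluster 1 by more than the limit (-1.02). It was at 0 TPM in 15 cells of cluster 2 and in 0 cells of cluster 1. These 15 cells had a median of 8567 genes with a read, against 12409 in the other 71 cells of cluster 2, and 13 of them were below the median of the cluster. Within cluster 2 the Spearman correlation of Bcl2l1 with the number of genes was 0.32, and the part of the number of genes in the Bcl2l1 values was not tested.

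Bcl2l11 was at 1 TPM or more in 3 of 19, 8 of 86 and 13 of 33 cells of clusters 1 to 3. Its mean was 1.85 ± 5.73, 1.46 ± 5.76 and 9.92 ± 23.4 TPM, with a log2 ratio of 2.15 between clusters 3 and 2. Cell S120 alone held 123.7 TPM of it, and without that cell the ratio was 1.58. The call for Bid in the opposite direction rested on single cells. Bid had means of 33.3 ± 62.8, 37.9 ± 73.95 and 23.7 ± 29.4 TPM, and the log2 ratio of -0.65 between clusters 3 and 2 became -0.38 without cell S017, which carried 606 TPM of Bid and no Bcl2l1 or Mcl1. The call was also lost without cell S117, and divided by spike-in TPM the ratio was 0.42, below the median of all genes on that scale (0.52) as it was in TPM (-0.22). The share of cells with Bid went the other way, with 9 of 19, 51 of 86 and 24 of 33 cells at 1 TPM or more. Bad was at 1 TPM or more in 8, 43 and 21 of those cells, with means of 9.64 ± 14.9, 12.8 ± 19.4 and 10.0 ± 11.6 TPM, and was not called in any contrast. Bcl2 had means of 2.25 ± 7.66, 2.44 ± 12.4 and 1.91 ± 4.06 TPM and was not called either, but its log2 ratio between clusters 2 and 1 went from 0.08 to -0.61 without cell S013 and to 1.17 without cell S103.

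The identity of the leading pro-survival transcript changed with the cluster. Bcl2l1 was the highest pro-survival member in 16 of 19 cells of cluster 1 (84.2%, interval 60.4 to 96.6%), in 40 of 86 cells of cluster 2 (46.5%, interval 35.7 to 57.6%) and in 9 of 33 cells of cluster 3 (27.3%, interval 13.3 to 45.5%). Mcl1 led in 1, 31 and 7 of these cells. Bcl2l10 led in 0, 8 and 16 cells, so that it was the most frequent leader of cluster 3 (48.5%, interval 30.8 to 66.5%), and in 13 of those 33 cells it exceeded Bcl2l1 and Mcl1 together. No pro-survival member reached 1 TPM in 1 cell of cluster 1, 6 cells of cluster 2 and 0 cells of cluster 3.

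**Figure D2:**
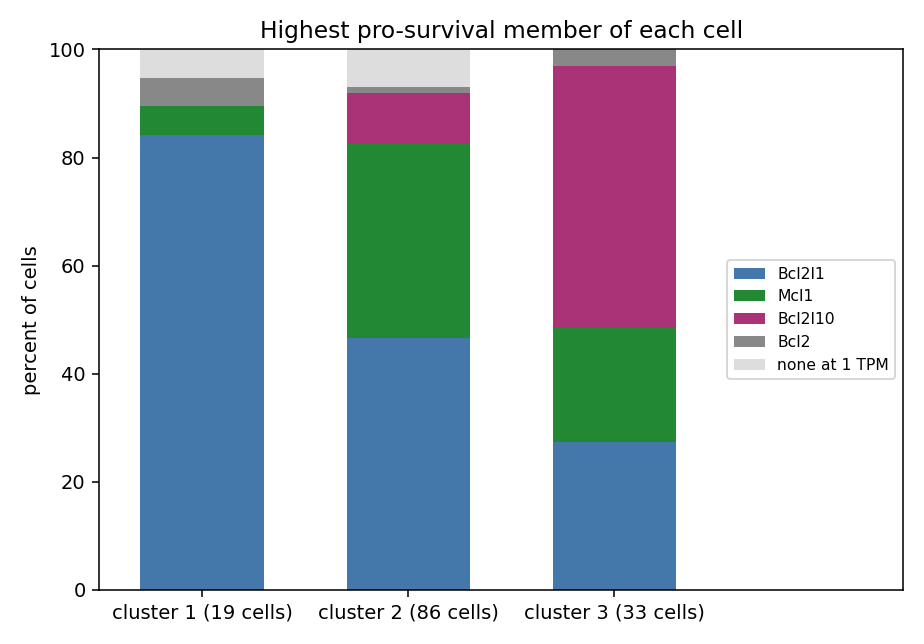
Percent of cells of each rebuilt cluster (19, 86 and 33 cells) in which a given pro-survival member has the highest TPM; light grey marks cells in which none reaches 1 TPM. Bcl2l1 leads in 84.2% of cluster 1 and Bcl2l10 in 48.5% of cluster 3.

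The balance within each cell was the log2 ratio of the summed pro-survival TPM to the summed pro-death TPM, each with 1 TPM added. The pro-survival sum had a lowest value of 0, a median of 92.05 and a highest value of 483 TPM, and the pro-death sum had a lowest value of 32.2, a median of 557 and a highest value of 1402 TPM. By TPM, pro-death transcripts outweighed pro-survival ones in nearly all cells. The median balance was -2.52 (SD over cells 2.00), a 5.75-fold excess of pro-death transcripts, and it was above 0 in 6 cells (4.35%, interval 1.61 to 9.22%). With sums of reads, which are not divided by length, the median was -1.12, a 2.18-fold excess, and 15.9% of cells were above 0. Within the pairs of repeat libraries the balance had an SD of 0.0675 and differed by at most 0.164.

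Most of the negative value was Bax. It made up a median of 94.3% of the pro-death sum, and against the BH3-only members alone the median balance was 1.49, above 0 in 78.99% of cells. The balance had a Spearman correlation of 0.64 with Bcl2l1 and of -0.50 with Bax over cells, both of which are part of it. Sums weigh abundant members. As a mean of log2(TPM + 1) over the members of each side, which weighs all members alike, the median was 0.29 and 83 cells were above 0. The pro-death mean is over 6 members, and it is lowered by Bak1 and Bok, which were above 0 in 2 and 4 cells. A mean without these near-absent members was not taken. The sign of the balance therefore depends on whether TPM is summed or log2 values are averaged over members that include Bak1 and Bok. A sum of TPM does not measure protein.

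**Figure D3:**
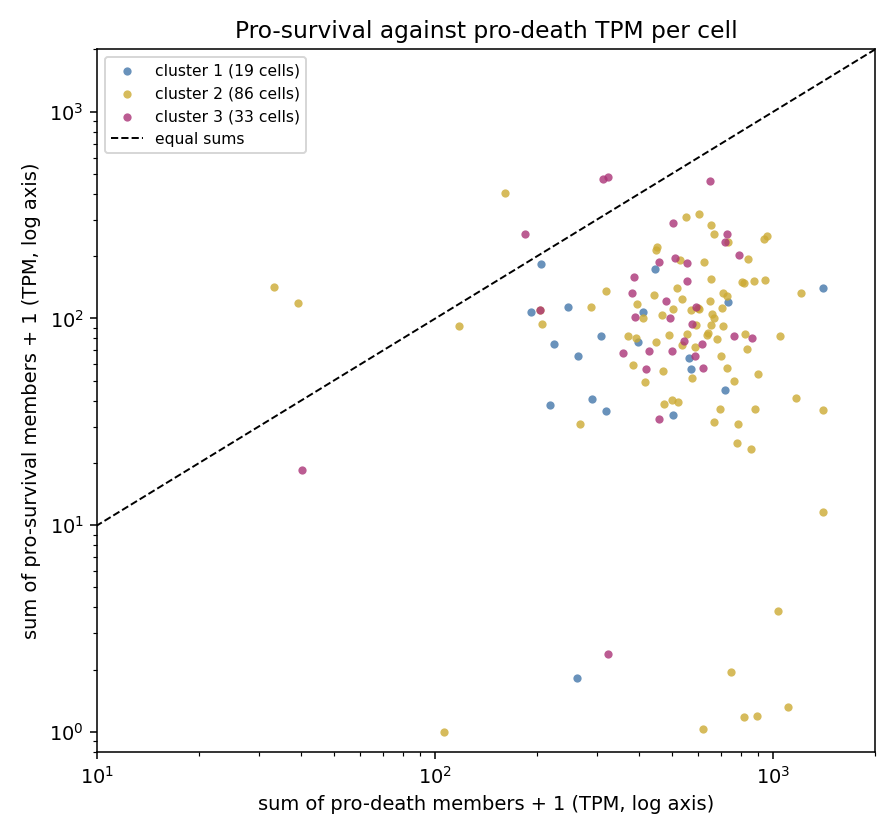
Sum of the 4 pro-survival members against the sum of the 6 pro-death members in each kept cell, both as TPM + 1 on log axes, coloured by rebuilt cluster; the dashed line marks equal sums. All but 6 cells lie below the line, and 9 cells lie near the bottom with a pro-survival sum under 3 TPM.

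The cells at both ends of the balance were named after their values were seen. Above 0 were cells S066 (2.09), S014 (1.59) and S041 (1.34) of cluster 2 and cells S113 (0.59), S138 (0.57) and S012 (0.47) of cluster 3. They reached it in different ways. Cells S066 and S014 combined 137.1 and 113.6 TPM of Bcl2l1 with only 32.1 and 38.1 TPM of Bax, cell S041 had 219.96 TPM of Bcl2l1 and 185 TPM of Mcl1, and cell S138 had 465 TPM of Bcl2l10. Mitochondrial genes took 16.8, 20.9 and 15.8% of the reads in cells S066, S014 and S012, and 6.19, 6.58 and 6.45% in cells S041, S113 and S138. Cell S014 had the fewest reads on genes of all kept cells (4837060), followed in this set by S066 (5267760) and S041 (6213010), and cell S041 had the fewest genes with a read (6450). The part of these measures in the balance above 0 was not tested, and the study's quality limits were not applied to these cells. At the other end were cells S017 (-9.72), S040 (-9.56), S022 (-9.45) and S038 (-9.22), all of cluster 2, with pro-survival sums of 0.316, 0.192, 0.178 and 0.0387 TPM beside 501, 791, 820.3 and 525 TPM of Bax. These 4 cells had 17440700, 6914360, 10956300 and 7904170 reads on genes but only 6499, 9697, 6608 and 8567 genes with a read, where the median of all cells was 12625. Within cluster 2 the balance had a Spearman correlation of 0.45 with the number of genes with a read and of 0.09 with the number of reads, and the part of the number of genes in the balance was not tested. The summed germ cell markers and the balance had a correlation of -0.32, the summed pregranulosa markers had 0.24, the summed blood and endothelial markers had 0.21 and the summed stromal markers had 0.03.

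The median balance was -2.52 in cluster 1, -2.65 in cluster 2 and -1.97 in cluster 3, so that the excess of pro-death transcripts was 5.74-fold, 6.26-fold and 3.91-fold. The balance ranged from -7.17 to -0.16, from -9.72 to 2.09 and from -7.10 to 0.59, and these ranges overlap over most of their length. The step from cluster 2 to 3 (0.68) passed the 1.5-fold limit but was smaller than the SD over cells of either cluster (2.21 and 1.46). It came with Bcl2l10. Without Bcl2l10 on the pro-survival side the medians were -2.52, -2.95 and -3.05, and the step from cluster 2 to 3 was -0.10. Counted as pro-death, in view of its described activity in the mouse, Bcl2l10 gave -0.29. Bcl2l1 and Mcl1 against Bax gave differences of -0.82 from cluster 1 to 2 and of -0.23 from cluster 2 to 3. Leaving out any single cell kept the step of the main balance from cluster 2 to 3 past the limit.

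**Figure D4:**
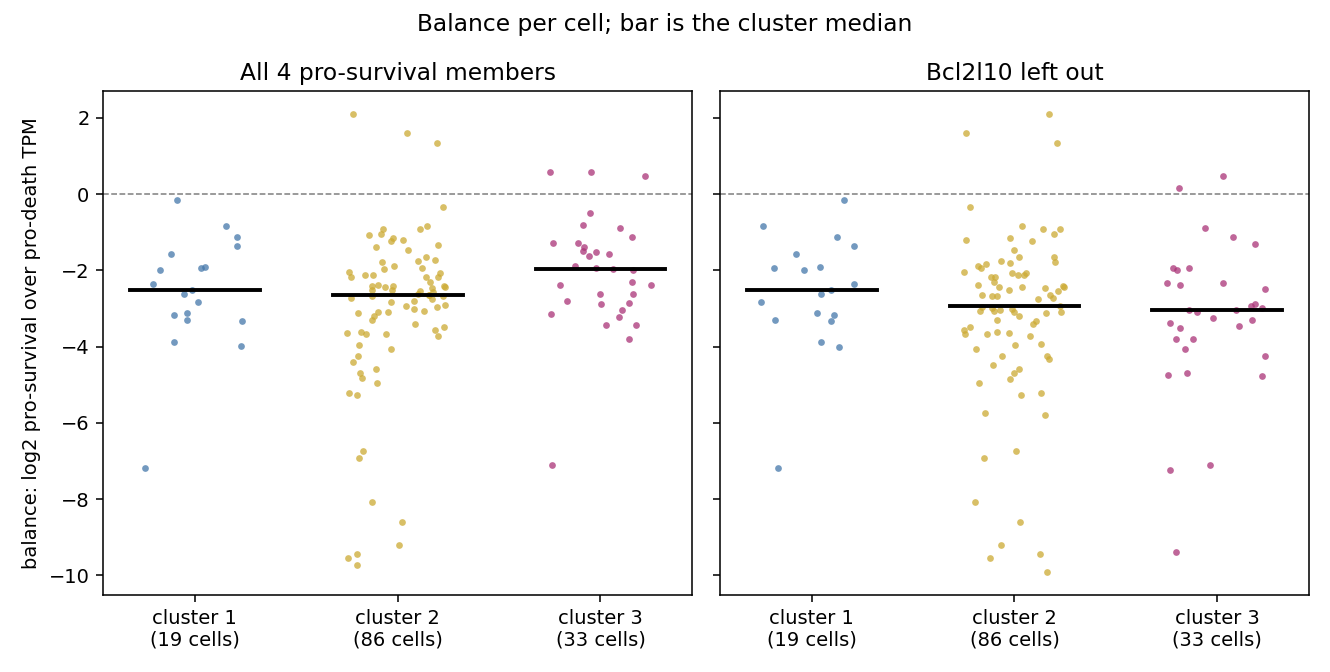
Balance per cell (log2 of summed pro-survival over summed pro-death TPM, 1 TPM added to both) by rebuilt cluster, with all 4 pro-survival members on the left and without Bcl2l10 on the right; points are cells and bars are cluster medians. The bar of cluster 3 lies at -1.97 with Bcl2l10 and at -3.05 without it.

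The order of cells on the first component of the feature genes was read in 5 bins of 27 or 28 cells. The mean of Bcl2l10 was 0.0464, 4.49, 14.7, 17.2 and 88.4 TPM from the first to the last bin (Spearman correlation with the order 0.54). Without cell S114 the mean of the bin after the first was 1.94 TPM. Bcl2l10 was present early in few cells and stepped up in the last bin, all of whose cells were of cluster 3. Bcl2l1 had 58.04, 67.9, 52.2, 59.6 and 27.6 TPM, and its lowest bin was the last. Mcl1 had 30.1, 43.7, 24.5, 39.1 and 25.9 TPM without a trend. Bax had 449, 503, 646, 530.2 and 485.5 TPM, highest in the middle bin, and Bid was highest there too, at 58.95 TPM, or 38.7 TPM without cell S017, beside 33.9 and 34.6 TPM in the bins before it. The pro-survival sum had medians of 68.2, 95.9, 74.3, 108.5 and 99.9 TPM along the order. Bcl2l10 was highest in the bin where Bcl2l1 was lowest.

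**Figure D5:**
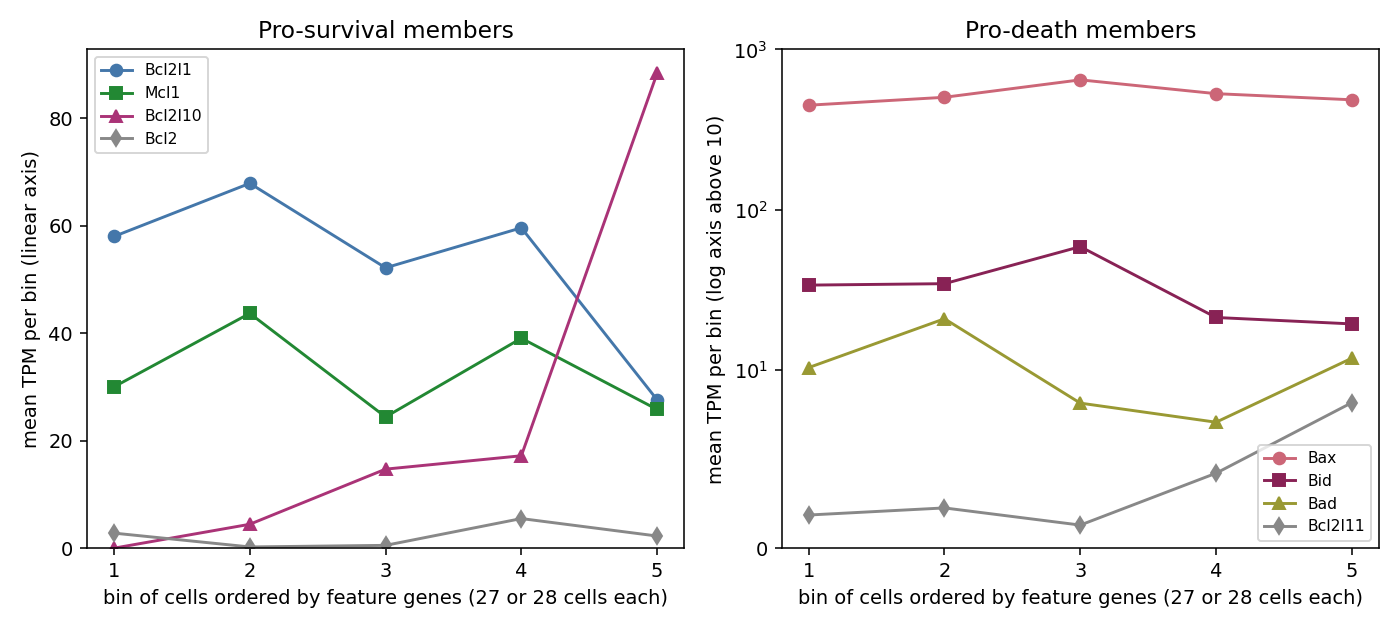
Mean TPM in 5 bins of cells ordered by the first component of the feature genes (27 or 28 cells each), pro-survival members on a linear axis on the left and pro-death members on an axis that is logarithmic above 10 on the right. Bcl2l10 climbs from 0.0464 to 88.4 TPM while Bcl2l1 is lowest in the last bin, at 27.6 TPM.

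The members did not vary together. Over the 45 pairs of members the Spearman correlation across cells ran from -0.21 (Bax and Bcl2l11) to 0.23 (Bcl2l10 and Bok), weak values in data with many zeros. Genes whose pattern was most like that of a member were taken from 7303 genes with a mean of at least 10 TPM that reached 1 TPM in 50% of cells or more. They were Cib1, Timm13 and Lyrm4 for Bax (0.47 each), Tubgcp4 (0.44), Gpatch3 (0.41) and Alas1 (0.39) for Bcl2l1, and Rsph3b (0.39), Mkks (0.39) and Lpcat4 (0.35) for Mcl1. For Bid they were Ttc27 (0.44), Arhgdia (0.38) and Rnf187 (0.37), and for Bad they were Kdf1 (0.41), Stau1 (0.40) and Gnl1 (0.38). Each of these is the top of 7303 correlations over the same cells.

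Other genes of the pathway were read from fixed lists. Of 15 further Bcl2 family genes, 8 had a mean of at least 1 TPM. From cluster 1 to 3, 5 of the 8 were higher and 2 lower by 1.5-fold, where 30.8% of all genes were higher and 33.8% lower. The mitophagy receptors Bnip3l (618 ± 360 TPM) and Bnip3 (223 ± 174 TPM) were the most abundant. Pmaip1, which encodes the Mcl1-binding BH3-only protein NOXA, had means of 3.99, 14.9 and 15.2 TPM in clusters 1 to 3, and Bcl2l12 had 11.9, 15.7 and 39.9 TPM. Bbc3, which encodes PUMA, a BH3-only protein of oocyte death after DNA damage, had a mean of 1.86 TPM over all cells and reached 1 TPM in 14 cells. The 2 lower genes were Bmf, with 9.58, 0.596 and 0.221 TPM, and Bcl2l13, with 11.4, 5.67 and 3.16 TPM. Bmf reached 1 TPM in 12 cells.

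Upstream of the BH3-only genes, 6 of 7 listed genes had a mean of at least 1 TPM, and from cluster 1 to 3, 3 were higher and 2 lower, beside 30.8% and 33.8% of all genes. Trp63, whose TAp63 form guards the oocyte genome, had means of 3.40, 27.4 and 49.9 TPM (log2 ratio 3.53 between clusters 3 and 1). Foxo3, a regulator of primordial follicle dormancy, had 20.3, 90.1 and 64.9 TPM, and Trp53 had 13.5, 28.3 and 30.4 TPM. The genes that were lower are stress-response genes, with Ddit3 at 29.7, 13.8 and 7.33 TPM and Jun at 20.1, 6.31 and 1.99 TPM. Jun is outside the naming rule and was chosen after its values were seen.

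Downstream of the mitochondria, 8 of 10 apoptosome and caspase genes had a mean of at least 1 TPM, of which 4 were higher and 1 was lower in cluster 3 than in cluster 1 (30.8% and 33.8% of all genes). Casp6 had means of 30.2, 28.6 and 54.5 TPM and Casp9, the initiator caspase of this pathway, had 5.09, 15.4 and 8.84 TPM. Cycs, which encodes somatic cytochrome c, had 24.7, 15.4 and 6.91 TPM. Of 7 inhibitors of apoptosis and their antagonists, 2 were higher and 4 lower, against the same shares of all genes. Birc2 (cIAP1) had 136.9, 41.2 and 28.5 TPM, Xiap had 17.7, 10.4 and 6.67 TPM and Htra2, which cuts these inhibitors, had 46.2, 45.1 and 11.5 TPM, whereas Birc5 (survivin) had 545, 724 and 974 TPM.

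The last lists were partners at the mitochondrial membrane and the turnover of the Mcl1 protein. Of 7 mitochondrial partners, 1 was higher in cluster 3 than in cluster 1 (Ywhaz, with 185, 224 and 326.6 TPM) and 1 was lower (Bcap31, with 321, 309.9 and 144.8 TPM). Vdac2, a partner of Bak1 in the outer membrane, had 136.1, 116.5 and 90.7 TPM and Tmbim6 had 100.1, 117.05 and 70.5 TPM. Of 5 genes of Mcl1 turnover, 0 were higher and 3 lower. Of all genes, 30.8% were higher and 33.8% lower in this contrast, and with lists of 5 to 8 genes these counts say nothing particular about a list. The deubiquitinase Usp9x had 151, 88.6 and 86.7 TPM, the ubiquitin ligase Huwe1 had 168, 157 and 114.9 TPM, Btrc had 112.7, 71.6 and 47.8 TPM and Fbxw7 had 24.8, 37.3 and 36.8 TPM. Divided by spike-in TPM, the median ratio of all genes from cluster 1 to 3 moved from -0.05 to 0.44, and the sign turned for 10 of the 49 pathway genes with a ratio, Usp9x, Huwe1, Vdac2, Tmbim6, Bnip3 and Aifm1 among them. The signs of Trp63, Foxo3, Trp53, Pmaip1, Bcl2l12, Cycs, Birc2, Xiap, Htra2, Ddit3 and Bcap31 stayed.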

How the data were processed

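Single germ cells of P0.5 ovaries were sequenced by Smart-seq2 on polyadenylated RNA with ERCC spike-ins. Before that, the study checked the cDNA by PCR for Ddx4 (Vasa) and Foxl2 and discarded samples with Foxl2. Per the submitters' processing notes and the study's methods, the authors ran FastQC and Salmon against mm10 with the spike-ins added. The authors deposited TPM and estimated counts (expected counts of reads, not normalized) for each gene symbol. The deposited length columns appeared to be divided by the number of transcripts of a gene and were not used; TPM did not show this. TPM of a cell is a share of its RNA, so a level can move with other genes, and low totals make low genes drop out.

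Libraries with an r of log2(TPM + 1) over 0.9 were averaged (TPM) and summed (reads). A member counted as present at 1 TPM, ratios are of cluster means with a pseudocount of 1 TPM and were called past 1.5-fold (0.58 on the log2 scale), and genes needed a mean of 1 TPM. Intervals are exact Clopper-Pearson (95%), and an upper limit of a share is 3 counts. For the clusters, Seurat 5.3.0 under R 4.3.3 was run on all 146 libraries with 20 feature genes, 10 components, 20 neighbours and a resolution of 0.2. Other steps used Python 3.11.15, pandas 2.3.3, NumPy 2.4.6, SciPy 1.17.1 and matplotlib 3.10.9. The ratios were checked on simulated data, and the formula of the balance on typed numbers only. Places are from GENCODE M21 and promoters from RefSeq. Protein sequences were not analysed here. The members, lists and clusters were chosen with earlier results of these data known. The text names all 10 members, of each list the genes with a mean of at least 10 TPM and up to 4 with the largest change between clusters 1 and 3, and for each member present in 50% of cells its 3 most correlated genes. Bbc3, Bmf, Bcl2l13 and Jun are outside this rule. Alternatives changed the cells, the scale, the pseudocount, the members of the balance, the clusters, the order and the calls.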

Additional observations from a re-analysis of the deposited data

Results flagged for a closer look

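The library that was left out for its Ddx4 level of 0 TPM gave a signal of the family. It entered the building of the clusters and the alternative without a Ddx4 limit, but no main value. In that alternative the mean of Bcl2l1 was 55.4 TPM and the balance step from cluster 1 to 2 was -0.21. Bcl2l1 stood at 350 TPM (164 reads) in this library, above the highest value of any kept cell (254 TPM). Bax stood at 1.04 TPM with 1 read, Bcl2 at 2.44 TPM, and Mcl1, Bcl2l10, Bak1, Bok and Bad at 0. The library had 1408460 reads on genes, the fewest of all. Of the 6 stromal markers, Col1a2 stood at 222 TPM and Pdgfra at 11.5 TPM, and the other four were under 1 TPM, Col1a1 and Col3a1 at 0 among them. Of the 6 pregranulosa markers, Kitl stood at 82.4 TPM and Lgr5 at 2.63 TPM, Fst was at 0.272 TPM and Foxl2, Amhr2 and Krt19 were at 0. Of the 7 blood and endothelium markers, Tie1 stood at 2.27, Cdh5 at 1.74 and Ptprc at 1.44 TPM, and the other four, all globin genes, were at 0. All 6 germ cell markers were under 1 TPM. It is 1 library, and no other library of this kind was there to compare it with.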

How the results depend on the processing

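Of 474 comparisons of a signed value with its alternative, 54 changed sign, 22 with a value past the limit on one side at least and 32 with both values under it. The levels of all 10 members and the median balance moved by less than the SD over cells with each change of cells. Leaving out a part of the cells can hardly move a mean by an SD, so this limit says little. Without a single cell the mean of Bcl2 went from 2.29 to 1.47 TPM (S013). That of Bok went from 0.533 to 0.0627 TPM (S091) and that of Bak1 from 0.00289 to 0.000403 TPM (S019). The step of the balance from cluster 2 to 3 reversed with Bcl2l10 left out (-0.10), with Bcl2l10 as pro-death (-0.29), with Bcl2l1 and Mcl1 against Bax (-0.23) and with Bcl2l1 alone against Bax (-0.38), a choice made after seeing the data. It was weaker against the effectors (0.54) and as a mean of log2 values (0.48). The step from cluster 1 to 2 was stronger with Bcl2l1 and Mcl1 against Bax (-0.82), Bcl2l1 alone (-1.38), Mcl1 left out (-0.85) and the BH3-only members (-0.59). The step from cluster 1 to 3 (0.55) turned to the other direction with Bcl2l10 left out (-0.53), Bcl2l10 as pro-death (-0.71), Bcl2l1 and Mcl1 against Bax (-1.05) and Bcl2l1 alone (-1.76). It passed the limit with sums of reads (0.95) and, as a choice made after seeing the data, without cells with globin over 1000 TPM (0.62). The median balance turned to 1.49 against the BH3-only members and to 0.29 as a mean of log2 values, and the share of cells above 0 was 78.99% and 60.1%, and 15.9% with sums of reads. Leave-one-out gave a median balance of -2.53 to -2.52, a share above 0 of 3.65 to 4.38%, and steps of -0.21 to -0.08 (clusters 1 to 2), 0.67 to 0.70 (2 to 3) and 0.47 to 0.60 (1 to 3).

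The number of members called higher in cluster 2 than in cluster 1 (2) was 4 as a difference of mean log2 values and by CPM, 3 without the 7 cells sequenced as 2 libraries, and 1 with Ward clusters, with clusters from variable genes and at 2-fold. The number lower there (0) was 1 as a difference of mean log2 values. The number higher in cluster 3 than in cluster 2 (2) was 4 per spike-in. The number lower (1, Bid) was 0 without mitochondrial genes and spike-ins in the TPM, per spike-in, at 2-fold and without cells with much globin, and 3 with Ward clusters. Bid turned to 0.18 as a difference of mean log2 values and to 0.42 per spike-in, and between clusters 1 and 3 it turned from -0.47 to 0.89 as a difference of mean log2 values. Per spike-in, the ratio of cluster 3 over 2 turned to 0.69 for Mcl1 and to 0.64 for Bax, while the median of all genes moved from -0.22 to 0.52. With clusters from variable genes, Bcl2 turned to 1.35 (3 over 2) and 1.11 (3 over 1) and Bad to -0.94 (3 over 1). Between clusters 1 and 3 the number higher (3) was 5 as a difference of mean log2 values and per spike-in. It was 4 without a limit on the mean and 2 with Ward clusters and at 2-fold. The number lower (0) was 1 as a difference of mean log2 values, 1 with Ward clusters and 2 with clusters from variable genes. With a cell left out in turn, the numbers were 2 to 4 higher and 0 to 1 lower (clusters 1 to 2), 2 higher and 0 to 2 lower (2 to 3), and 2 to 4 higher and 0 to 2 lower (1 to 3). Bad and Bid were gained without cell S036, Bad without cell S107 and Bcl2l11 without cell S051 (2 over 1), Bcl2 without cell S103 (2 over 1 and 3 over 1), Bcl2 as lower without cell S013 (2 over 1), Bcl2l1 as lower without cell S012 (3 over 2 and 3 over 1), Bid as lower without cell S012 (3 over 1), and Mcl1 was lost without cell S113 (3 over 1). With a cell left out in turn, the ratio of Bcl2 ran from -0.61 to 1.17 (2 over 1) and from -0.43 to 0.93 (3 over 1), and that of Bcl2l11 from -0.52 to 0.63 (2 over 1). In 3 bins in place of 5, Bcl2l1 was not past the limit between the ends of the order (-0.52, against -1.04), and Bcl2 (0.94, against -0.22) and Bad (-0.94, against 0.18) changed sign and passed it. A change that no value explains had a cause that was not tested. Levels under 1 TPM rest on few reads, and shares at 0.1 TPM were 42.03% for Bcl2l10, 40.6% for Bcl2 and 28.3% for Bcl2l11. No paired analysis was possible because the labels give 1 group.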
